A study of Mus musculus with 8 samples.

Results

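The collagen crosslinking enzymes described here are the 5 lysyl oxidase genes Lox, Loxl1, Loxl2, Loxl3 and Loxl4 and the 3 lysyl hydroxylase genes Plod1, Plod2 and Plod3. They were chosen by gene symbol, and all 8 were found among the 22322 genes of the deposited table and had enough reads to be tested. RNA was sequenced from 8 samples labelled as primary fibroblasts of mouse kidney: 4 given the GFP adenovirus Ad-GFP and labelled wild type, and 4 given Ad-Cre, whose virus encodes Cre recombinase, and labelled as a suv39h1 knockdown. TGF-β was added to all 8 (5 ng/ml, 48 hours), so there was no unstimulated baseline. The comparison asks how these enzymes' transcripts differ between Ad-Cre, labelled as reduced in the H3K9 methyltransferase Suv39h1, and Ad-GFP, in TGF-β-treated cells. Lower Suv39h1, Cre itself and the lack of GFP go together in this design and cannot be told apart. The labels give no age, sex or strain, do not name the Suv39h1 allele that Cre acts on, and do not say what a replicate is (a culture, an animal or a repeat preparation). The p-values therefore measure no more than the spread between these samples, and that spread may be technical.

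Collagen fibrils are held together by covalent bonds between lysine side chains. Inside the cell, lysyl hydroxylases, which need iron and ascorbate, add hydroxyl groups to lysines of the procollagen chains. Outside it, lysyl oxidases, copper-dependent amine oxidases, turn lysines and hydroxylysines into reactive aldehydes that condense into crosslinks, and the hydroxylation state sets which crosslinks form. In fibrotic kidney these crosslinks stiffen the matrix and make it harder to degrade.

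The active site that defines the lysyl oxidases is shown first, because it is what the family has in common. The coding DNA of the copper-binding stretch was read from the longest GENCODE M21 transcript of each gene (GRCm38), 5′ to 3′ on the gene's strand, with histidine codons in capitals. In each of these 4 genes the stretch spans an exon junction. It lies at chr9:58293720-58294381 on the minus strand for Loxl1 (exons 3 and 4 of 7), chr14:69682316-69689037 on the plus strand for Loxl2 (exons 10 and 11 of 14), chr6:83049995-83050125 on the plus strand for Loxl3 (exons 10 and 11 of 14) and chr19:42598807-42599899 on the minus strand for Loxl4 (exons 11 and 12 of 15).
Loxl1: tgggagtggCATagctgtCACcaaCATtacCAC
Loxl2: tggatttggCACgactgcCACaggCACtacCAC
Loxl3: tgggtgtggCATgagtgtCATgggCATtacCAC
Loxl4: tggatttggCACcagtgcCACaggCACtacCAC
Loxl2 and Loxl4 had 31 of these 33 bases in common, and Lox and Loxl1 had 32 of 33. Over whole transcripts, the longest run of identical bases between 2 lysyl oxidase genes was 32 (Lox and Loxl1), and between 2 lysyl hydroxylase genes it was 24 (Plod1 and Plod3). For Plod1 the transcript compared was the one of 3243 bases, not the longest annotated one of 4097 bases. The rule for reads that match more than 1 gene is not stated in the sources used here.

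A second sequence bears on Plod2, whose 2 longest annotated transcripts differ in an internal exon, besides other parts. That exon holds 63 bases, keeps the reading frame, and is exon 14 of 20 in the longer annotated transcript, at chr9:92601985-92602047 on the plus strand (GRCm38). The other long annotated transcript skips it. The longer form is the one associated with hydroxylation of the collagen telopeptides, the ends of the chains where the first crosslinks form.
Plod2 alternative exon: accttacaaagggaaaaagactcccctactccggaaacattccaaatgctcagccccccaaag
The deposited table gives 1 count per gene, so the forms with and without this exon were not told apart in anything below.

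The libraries held 15879244 to 17930632 counts in Ad-GFP and 18006938 to 23940043 in Ad-Cre, so every Ad-Cre library was deeper. Levels below are CPM, the counts per 1000000 counts after scaling between libraries. The targeted gene, Suv39h1, averaged 28.9 ± 0.8 in Ad-GFP against 23.1 ± 1.6 CPM in Ad-Cre (SD, n = 4), or 79.6% of control (edgeR, adjusted p = 3.293e-05), and was lower in all 4 Ad-Cre libraries. The labelled knockdown was therefore partial in the gene's total reads, and its exons overlap those of the antisense gene Gm14820 over 767 bases. Fibroblast markers were present but not dominant. In Ad-GFP, Vim was at 251.9, Pdgfrb at 28.0, Dcn at 4.19 and Pdgfra at 5.14 CPM, and Lum had too few reads to be tested. The epithelial keratin gene Krt8 was at 1504 CPM. The 6 fibroblast markers tested summed to 290.6 to 306.0 CPM in Ad-GFP, and the 10 general epithelial ones to 5548 to 5773 CPM. CPM is not scaled to transcript length.

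Of the 8 enzymes, 2 lysyl oxidases fell in Ad-Cre (Loxl4 and Loxl2), 1 lysyl hydroxylase rose (Plod2), and 5 did not pass the test. A gene is said to rise or fall only with an adjusted p under 0.05 over all 13337 genes tested. By that rule 40.3% of all genes tested changed, 20.5% lower and 19.8% higher, so 3 of 8 is a share near the background and says nothing particular of these enzymes as a group. The median log2 fold change was -0.21 for the lysyl oxidases and 0.07 for the lysyl hydroxylases, beside 0.004 for all genes tested. The CPM values of the groups did not overlap for the same 3 genes, and 35.4% of all genes tested had groups that did not overlap. The 3 calls were made in opposite directions and differed widely in size.

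Loxl4, a lysyl oxidase with scavenger receptor domains ahead of its catalytic part, had the largest fold change of the 8. Replicates 1 to 4 of Ad-GFP had 33.0, 34.8, 36.1 and 33.9 CPM of it, and replicates 1 to 4 of Ad-Cre had 18.0, 20.2, 19.7 and 17.2 CPM. Every Ad-Cre library was well below every Ad-GFP library, and the spread within each group was small beside the gap. Loxl4 thus fell from 34.5 ± 1.3 to 18.8 ± 1.4 CPM (SD, n = 4 per group), to 54.6% of its control level (95% interval 50.3% to 59.3%). Its log2 fold change was -0.87 ± 0.058 (SE; adjusted p = 4.429e-12, edgeR). Each library held 321 to 630 reads of it. The gene (ENSMUSG00000025185) lies on the minus strand of chromosome 19, at 42593982 to 42612813 (GRCm38), and no exon of another annotated gene overlaps its exons.

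Loxl2, of the same scavenger receptor subgroup and known for crosslinking basement membrane collagen IV, fell to a level nearer that of the controls. Its CPM values were 217.8, 211.9, 201.4 and 209.3 in Ad-GFP and 173.3, 185.0, 179.6 and 188.3 in Ad-Cre. The highest Ad-Cre library was still below the lowest Ad-GFP library. The means were 210.1 ± 6.8 and 181.5 ± 6.6 CPM (SD, n = 4), and Ad-Cre was at 86.5% of Ad-GFP (95% interval 83.0% to 90.1%; adjusted p = 1.721e-06, edgeR). Loxl2 (ENSMUSG00000034205) lies on the plus strand of chromosome 14 at 69609068 to 69695834. Its exons overlap those of the antisense gene Gm27177 over 301 bases. The sources used here do not state whether counting kept the strands apart.

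Lox, the founding lysyl oxidase, acting on fibrillar collagen and elastin, did not pass the test. Its Ad-GFP libraries had 141.3, 145.5, 143.0 and 134.0 CPM, its Ad-Cre libraries 126.2, 154.5, 129.0 and 130.5 CPM. In Ad-Cre, 3 libraries lay below every Ad-GFP library and replicate 2 lay above all of them. With all libraries, Ad-Cre was at 96.0% of Ad-GFP (95% interval 90.1% to 102.2%; adjusted p = 0.303, edgeR). Without Ad-Cre replicate 2 the log2 fold change was -0.135 and passed (adjusted p = 0.00109), so that 1 library decides the call. Over all the alternatives run for Lox the adjusted p ranged from 0.00109 to 0.627, and the log2 fold change stayed below 0 in each. Lox (ENSMUSG00000024529) lies on the minus strand of chromosome 18 at 52516067 to 52529867.

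Loxl1, which acts with fibulin-5 in the assembly of elastic fibres, ranged from 34.1 to 38.7 CPM in Ad-GFP and from 34.0 to 38.4 CPM in Ad-Cre, so the groups overlapped almost fully. It lies on the minus strand of chromosome 9 at 58287738 to 58313186. The ratio of Ad-Cre to Ad-GFP was 101.0% (95% interval 93.9% to 108.7%; adjusted p = 0.843, edgeR), and the sign of that difference changed between processing settings. Loxl3, the remaining scavenger receptor member, had the fewest reads of the 8, with 50 to 79 reads in a library. The Ad-GFP libraries had 4.47, 3.26, 4.08 and 3.63 CPM of it and the Ad-Cre libraries 3.41, 2.10, 2.93 and 3.58 CPM. The groups overlapped. Ad-Cre reached 77.3% of the control level (unadjusted 95% interval 60.8% to 98.3%; adjusted p = 0.0822, edgeR), a log2 fold change of -0.37. Leaving out Ad-Cre replicate 4 gave -0.475 and passed (adjusted p = 0.0453), while leaving out Ad-Cre replicate 2 gave -0.224 (adjusted p = 0.297). Over the 16 alternatives run for Loxl3 the log2 fold change was -0.475 to -0.173 and the adjusted p 0.0453 to 0.297. Loxl3 lies on the plus strand of chromosome 6 at 83034173 to 83052562. Its exons overlap those of Htra2 on the other strand over 535 bases, and Htra2, at 22.4 CPM in Ad-GFP, did not pass either (91.1% of Ad-GFP; adjusted p = 0.102).

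**Figure D1:**
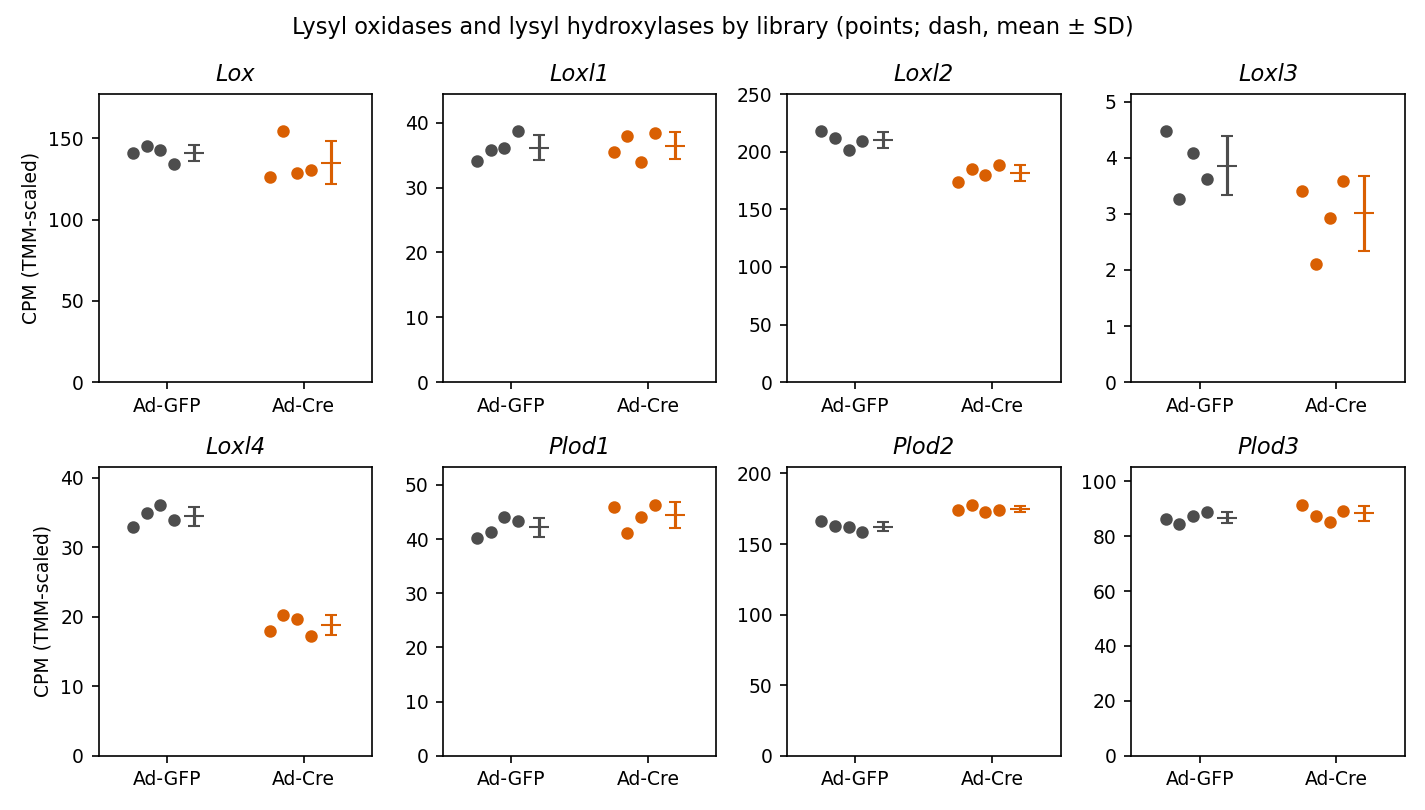
CPM of each of the 8 genes by library (points in the order of replicates 1 to 4), with the mean ± SD of the 4 libraries of a group beside them. The y axes start at 0. The groups are apart for Loxl4, Loxl2 and Plod2, and Lox in Ad-Cre has 1 library, at 154.5 CPM, above the other 3.

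Plod2, the lysyl hydroxylase of the telopeptides and a known hypoxia and TGF-β target, was the only lysyl hydroxylase called, and it rose slightly. Ad-GFP libraries had 166.4, 162.7, 161.7 and 158.4 CPM of Plod2 and Ad-Cre libraries 174.4, 177.9, 173.0 and 174.1 CPM. The lowest Ad-Cre library was above the highest Ad-GFP library. The means were 162.3 ± 3.3 and 174.9 ± 2.1 CPM (SD, n = 4), 107.7% of Ad-GFP (95% interval 103.9% to 111.7%; adjusted p = 0.00134, edgeR). Plod2 (ENSMUSG00000032374) lies on the plus strand of chromosome 9 at 92542223 to 92608428, and its exons overlap those of the unclassified gene Gm38391 on the other strand over 346 bases.

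Plod1, which hydroxylates lysines of the collagen triple helix, ranged from 40.1 to 44.0 CPM in Ad-GFP and from 41.1 to 46.4 CPM in Ad-Cre, so the groups overlapped. It lies on the minus strand of chromosome 4 at 147909753 to 147936767. The ratio of Ad-Cre to Ad-GFP was 105.0% (95% interval 98.2% to 112.3%; adjusted p = 0.242, edgeR). Plod3, which also carries glycosyltransferase activity toward hydroxylysine, was at 84.4 to 89.0 CPM in Ad-GFP and 85.1 to 91.5 CPM in Ad-Cre. That was 101.9% of Ad-GFP (95% interval 97.3% to 106.7%; adjusted p = 0.544, edgeR). The interval for Plod2 overlaps those for Plod1 and Plod3, and whether Plod2 differed from them in its change was not tested. Plod3 lies on the plus strand of chromosome 5 at 136987019 to 136996648. Its exons overlap those of Znhit1 on the other strand over 529 bases, and Znhit1 did not pass (104.1% of Ad-GFP; adjusted p = 0.466, edgeR).

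**Figure D2:**
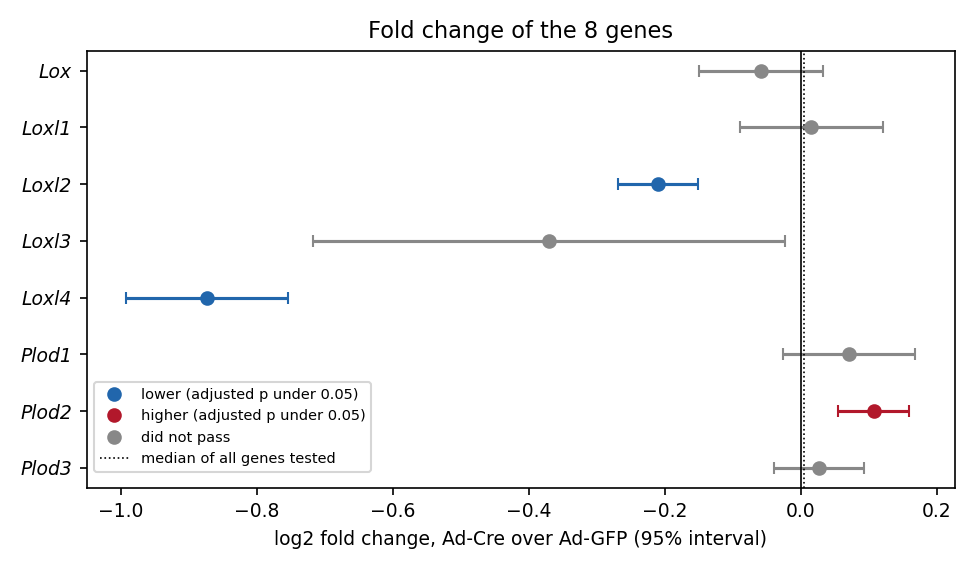
Log2 fold change of each gene, Ad-Cre over Ad-GFP, with its unadjusted 95% interval from the edgeR fit (n = 4 per group). Blue points fell, red points rose, grey points did not pass, and the dotted line is the median of all genes tested, 0.004. Loxl4 lies at -0.87, apart from the other 7.

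The exact two-sided permutation test of CPM gave p = 0.0286 for Loxl4, Loxl2 and Plod2, the smallest that 4 against 4 samples allow. Groups that do not overlap always give this value, so it restates the lack of overlap and adds no further support. The authors' deposited table called the same 3 genes, with an FDR of 2.41e-31 for Loxl4, 1.98e-09 for Loxl2 and 0.00163 for Plod2. Its FDR was 0.665 for Lox, 0.202 for Loxl3, 0.427 for Plod1, 0.726 for Plod3 and 0.923 for Loxl1, and 18.7% of all genes in that table had an FDR under 0.05. That table rests on the same libraries.

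Levels between genes were compared per transcript length, as FPKM (fragments per kilobase of transcript, scaled to sequencing depth), which the authors deposited for each library. In Ad-GFP the order was Plod2 (44.7 ± 0.9 FPKM, SD, n = 4), Loxl2 (41.5 ± 1.7), Lox (30.3 ± 1.3), Plod3 (27.3 ± 0.5), Plod1 (13.7 ± 1.0), Loxl1 (11.0 ± 0.6), Loxl4 (9.79 ± 0.49) and Loxl3 (0.948 ± 0.13). Neighbours in this order did not overlap in Ad-GFP except Loxl1 and Loxl4. In Ad-Cre the order was the same, with Plod2 at 47.4 ± 0.6, Loxl2 at 34.5 ± 1.2 and Loxl4 at 5.32 ± 0.48 FPKM. There Lox (28.6 ± 2.7) and Plod3 (28.3 ± 1.0) overlapped, while Loxl1 (11.0 ± 0.6) no longer overlapped Loxl4. Most lysyl oxidase transcript therefore came from Loxl2 and Lox in both groups, and most lysyl hydroxylase transcript from Plod2.

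**Figure D3:**
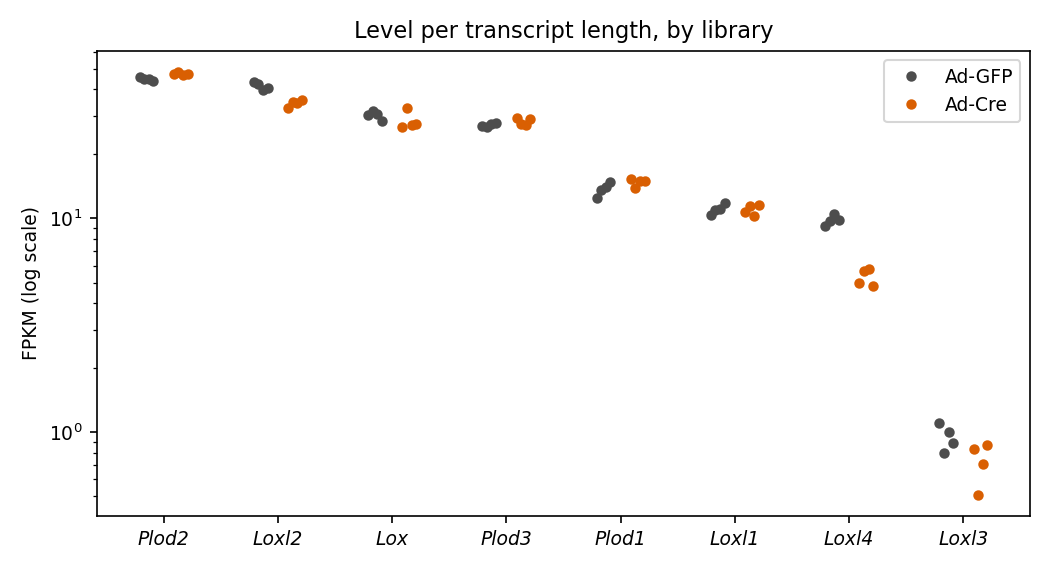
FPKM of the 8 genes in each library on a log scale, ordered by the Ad-GFP mean, with Ad-GFP in grey and Ad-Cre in orange. Plod2, at 44.7 FPKM in Ad-GFP, is the highest and Loxl3, at 0.948, the lowest, and Loxl4 shows the widest gap between the groups.

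Within the lysyl oxidases, Loxl4 made up 9.77%, 10.2%, 11.2% and 10.7% of the summed FPKM in Ad-GFP and 6.56%, 6.64%, 7.38% and 6.0% in Ad-Cre. Its mean share was 10.5 ± 0.6% and 6.64 ± 0.57% (SD, n = 4). Lox made up 32.4 ± 0.8% and 35.6 ± 1.8%, and Loxl1 11.8 ± 0.8% and 13.7 ± 0.6%. For these 3 shares the groups did not overlap, with an exact permutation p = 0.0286 each, and after adjustment over the 8 shares computed p = 0.0762, so none passed. As 0.0286 is the smallest p that 4 against 4 samples allow, 3 shares at that value could not pass this adjustment, whatever the size of their differences. The share of Loxl2 was 44.3 ± 1.2% and 43.1 ± 1.4% (exact permutation p = 0.286). Among the lysyl hydroxylases, Plod2 held 52.2 ± 1.3% and 52.5 ± 1.1%, Plod3 31.8 ± 0.4% and 31.3 ± 0.7%, and Plod1 16.0 ± 1.0% and 16.3 ± 0.6%, with exact permutation p-values of 0.8, 0.257 and 0.657. Loxl3 held 1.01 ± 0.14% and 0.918 ± 0.23% (exact permutation p = 0.543). Shares of a family sum to a constant, so they depend on each other, and they are not independent of the fold changes above.

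Most of the enzymes' substrates were lower in Ad-Cre. Of 11 tested collagen and elastin genes 8 fell, 3 did not pass and 0 rose, while 20.5% of all genes tested fell and 19.8% rose. Their median log2 fold change was -0.40, beside 0.004 for all genes tested. Col1a1 and Col1a2, the chains of collagen I, fell to 63.7% and 66.9% of Ad-GFP (adjusted p = 1.260e-12 and 2.004e-12, edgeR). Col5a1, of the collagen V that nucleates fibrils, fell to 75.8%, and Col4a1, a collagen IV chain, to 80.0%. Col5a2, another collagen V chain, named after its values were seen, had 556.8 ± 13.6 CPM in Ad-GFP and 564.5 ± 7.0 in Ad-Cre (SD, n = 4). It was at 101.4% of Ad-GFP and did not pass (adjusted p = 0.488, edgeR). Elastin, Eln, had 5.67 ± 1.20 CPM in Ad-GFP, 5.11 ± 1.12 in Ad-Cre (SD, n = 4), and did not pass (adjusted p = 0.478).

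Set against collagen I, which itself fell, both enzyme families were therefore higher in Ad-Cre, as any gene of unchanged FPKM would be. The summed FPKM of Col1a1 and Col1a2 was 72.7, 69.7, 68.5 and 76.2 in Ad-GFP and 45.2, 47.5, 42.2 and 49.2 in Ad-Cre. The lysyl oxidases summed to 94.3, 95.7, 92.7 and 91.6 FPKM in Ad-GFP and to 76.1, 85.2, 78.6 and 80.6 in Ad-Cre, 85.6% of Ad-GFP. The lysyl hydroxylases summed to 85.3, 85.2, 85.9 and 86.2 FPKM in Ad-GFP and to 91.9, 89.6, 89.2 and 91.2 in Ad-Cre, 105.6% of Ad-GFP. None of these 3 sums overlapped between the groups. The sums hold for FPKM, which need not change as CPM does. Loxl2 was at 83.2% of Ad-GFP in FPKM and 86.5% in CPM, and Plod2 at 106.2% and 107.7%. Per 1000 FPKM of collagen I there were 1307 ± 77 FPKM of lysyl oxidases in Ad-GFP and 1744 ± 102 in Ad-Cre (SD, n = 4), and 1195 ± 54 and 1971 ± 122 FPKM of lysyl hydroxylases. The ratio was 133.5% of Ad-GFP for the lysyl oxidases and 164.9% for the lysyl hydroxylases, with the collagen I sum beneath it at 64.1%. The ratio of Loxl4 to collagen I was 136.7 ± 11.8 and 116.2 ± 16.5 FPKM per 1000, and its groups overlapped. That of Loxl3, with 50 to 79 reads in a library, was 13.2 ± 1.9 and 15.9 ± 3.5, and its groups overlapped too. How many of all genes would overlap in such a ratio was not computed. These ratios are given with no test, and they depend on the substrate set beneath them. Col5a2 averaged 84.6 FPKM in Ad-GFP and was at 99.9% of that in Ad-Cre, and ratios to it were not computed.

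**Figure D4:**
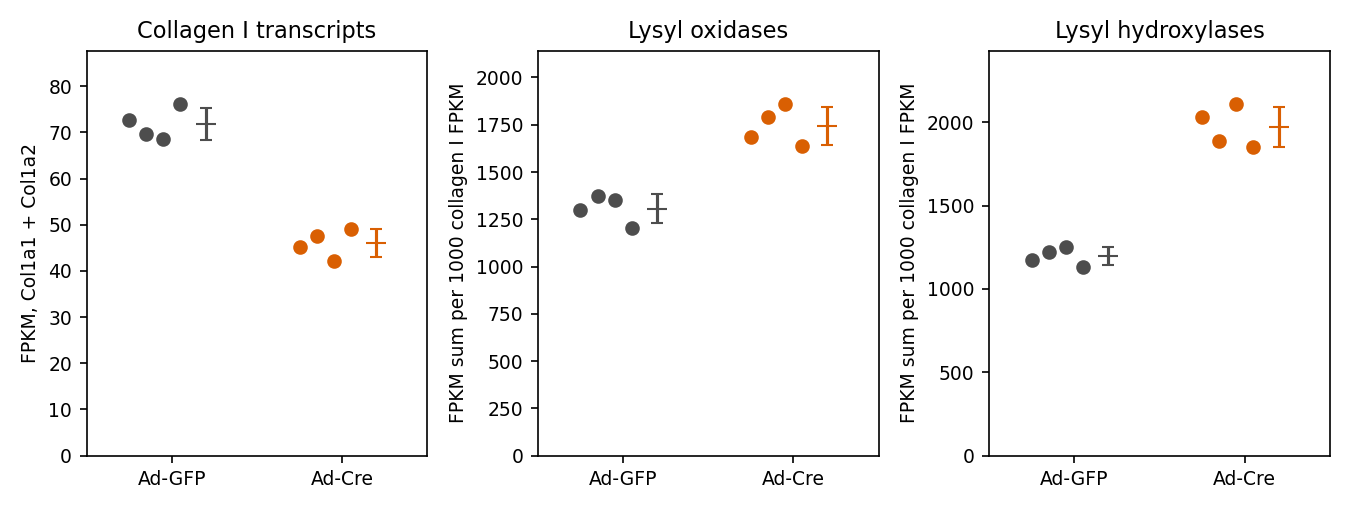
FPKM of collagen I (left), and the FPKM sums of the 5 lysyl oxidases (middle) and the 3 lysyl hydroxylases (right) per 1000 FPKM of collagen I, by library, with the mean ± SD of 4 libraries. The y axes start at 0. Collagen I is lower and both ratios are higher in every Ad-Cre library than in any Ad-GFP library. With collagen I lower, a gene of unchanged FPKM would also have a higher ratio.

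Procollagen is also modified, folded and exported by prolyl hydroxylases, glycosyltransferases, chaperones and secretory trafficking proteins. Of 25 such genes tested, 4 rose, 5 fell and 16 did not pass, beside 19.8% higher and 20.5% lower over all genes tested. The median log2 fold change of the 25 was 0.004, the same as over all genes tested. Not enzymes among the 9 called were Mia2 and Mia3, which rose, and Sec24d, all of secretory export and named after their values were seen, and Serpinh1 and Sparc. Sec24d fell to 88.5% of Ad-GFP, and Mia2 and Mia3 were at 104.3% and 107.4%. Serpinh1, the collagen chaperone HSP47, fell to 87.8% and Sparc, a collagen-binding matricellular protein, to 82.1% of Ad-GFP. P3h2, a prolyl 3-hydroxylase, rose to 129.7% and Fkbp9, a prolyl isomerase of the endoplasmic reticulum, to 115.1%. The prolyl 4-hydroxylase subunit genes P4ha1 and P4hb, named after their values were seen, were at 99.4% and 99.4% and did not pass (adjusted p = 0.878 and 0.742, edgeR). P4ha3, another such subunit gene, fell to 47.3% (adjusted p = 0.0327, edgeR) from a mean of only 0.791 CPM, with overlapping groups. Fkbp10, of the same list, fell to 87.1% (adjusted p = 0.00997, edgeR). They were also named after their values were seen.

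Among 8 tested genes of propeptide cleavage and lysyl oxidase activation, 2 rose and 2 fell. Over all genes tested, 19.8% rose and 20.5% fell. Bmp1, the protease that removes the propeptides of both procollagen and pro-lysyl oxidase, rose from 262.4 ± 7.4 to 295.8 ± 9.9 CPM (SD, n = 4), to 112.7% (adjusted p = 9.268e-06, edgeR). The proprotein convertase gene Pcsk6 rose to 128.9%. Tll1, a Bmp1 paralog, fell to 73.3% and the procollagen protease enhancer gene Pcolce2 to 73.8%.

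Of 14 tested matrix proteins that bind lysyl oxidases or carry their elastic substrates, 2 rose and 4 fell. The shares over all genes tested were 19.8% higher and 20.5% lower. Thbs1, encoding thrombospondin-1, rose to 132.6%, while Thbs2 fell to 71.2%, the fibrillin gene Fbn1 to 81.0% and Postn, encoding periostin, to 84.5%. The other gene that rose was Efemp2, encoding fibulin-4, which binds pro-lysyl oxidase and elastin. It was at 114.3% of Ad-GFP and was named after its values were seen.

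Of 11 tested genes that supply copper, iron and ascorbate, the cofactors of these enzymes, 4 rose, 1 fell and 6 did not pass. By comparison, 19.8% of all genes tested rose and 20.5% fell. Atp7a, the copper pump that loads lysyl oxidases in the secretory pathway, rose from 31.1 ± 1.3 to 38.5 ± 2.4 CPM (SD, n = 4), to 124.2% (adjusted p = 2.315e-05, edgeR). The transferrin receptor gene Tfrc rose to 123.4% and the metal transporter gene Slc39a14 to 118.2%, and Slc40a1, the iron exporter ferroportin, fell to 79.9%. Crosslinking enzymes of other chemistry all fell: the transglutaminase genes Tgm2 (69.4%) and Tgm1 (71.4%) and the peroxidasin gene Pxdn (92.6%), 3 of 3 tested.

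**Figure D5:**
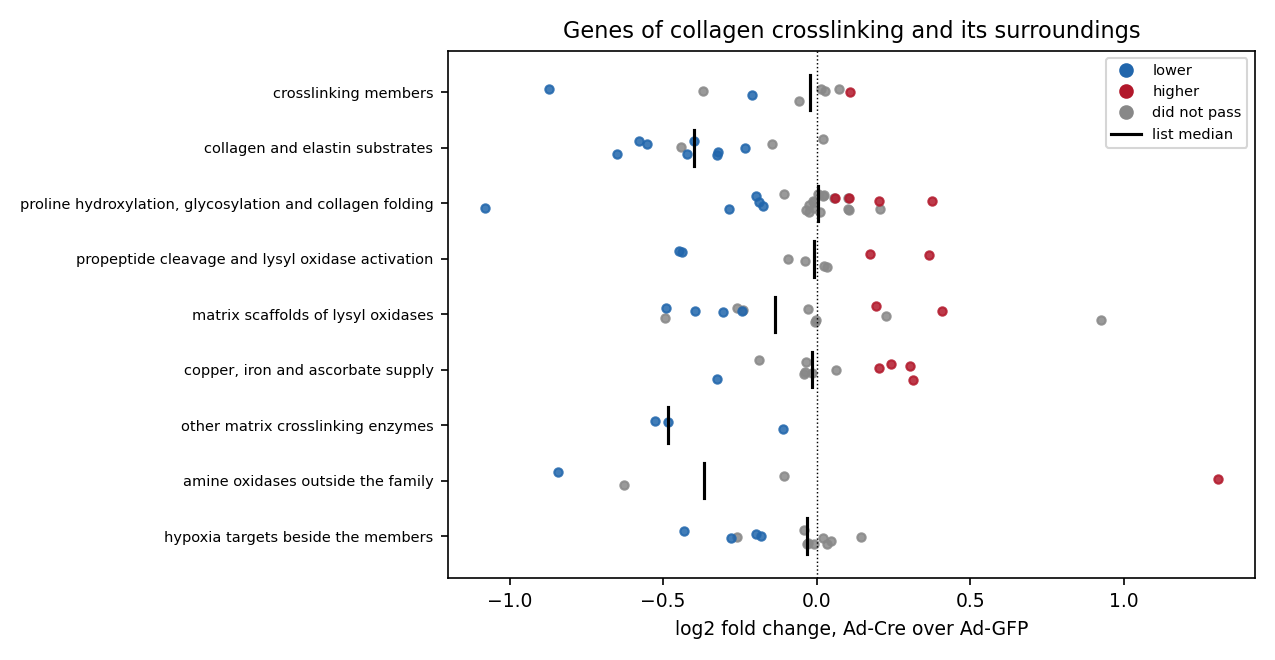
Log2 fold change (Ad-Cre over Ad-GFP) of every tested gene in the 9 lists, 1 point per gene, jittered vertically, with the list median as a black bar. The collagen and elastin substrates lie to the left, with a median of -0.40, while the 8 crosslinking enzymes have a median of -0.02.

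Markers of several cell types moved with the group as well, where 19.8% of all genes tested rose and 20.5% fell. In these bulk samples fewer cells of a type and less RNA per cell cannot be told apart. All 12 endothelial markers fell, and their summed level was 161.8 to 168.2 CPM in Ad-GFP and 80.4 to 92.9 CPM in Ad-Cre, with Cdh5 at 48.3% and Pecam1 at 49.7% of Ad-GFP. Of 12 macrophage and leukocyte markers 10 fell (295.8 to 338.2 against 254.7 to 267.8 CPM), Lyz2 to 89.5% and Csf1r to 82.5%. Of 6 mural markers 4 fell (265.2 to 278.9 against 231.8 to 244.6 CPM), with Mcam at 91.7%, while Notch3 was at 104.9% and did not pass. Of 6 tested fibroblast markers 2 fell (290.6 to 306.0 against 189.0 to 215.3 CPM), Vim to 66.3% and Thy1 to 21.5%. General epithelial markers had 3 rises and 5 falls of 10 and summed to 5548 to 5773 against 5054 to 5117 CPM, with Krt8 at 77.6% and Cldn4 at 96.4%. The 3 that rose were Epcam (118.0%), Ocln (113.5%) and Pax8 (111.6%), and the 5 that fell were Krt8, Krt18, Krt19, Krt7 and Cldn4. For the proximal tubule 5 markers were tested and 4 of them rose: Aqp1, Cubn, Ggt1 and Havcr1. The 5 summed to 113.7 to 128.8 CPM in Ad-GFP and to 161.5 to 185.6 CPM in Ad-Cre. Ggt1 rose from a mean of 42.2 to 63.3 CPM and Havcr1 from 30.4 to 46.9 CPM. Lrp2 had 39.5 CPM in Ad-GFP and 36.6 in Ad-Cre (92.7%) and did not pass, and Slc34a1 had too few reads to be tested. No listed marker was at 0 in every library. The part of these shifts in the lower Loxl4 and Loxl2 and the higher Plod2 was not tested.

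The promoter of Loxl4, the gene with the largest change, is shown beside that of Plod1, which did not pass. RefSeq promoters (GRCm38.p6, 250 bases before to 50 after the start) were at hand for Loxl4, Plod1 and Plod3. The motifs searched, on both strands, were the AP-1 motif TGANTCA, the SMAD palindrome GTCTAGAC, the SMAD element CAGACA, the hypoxia response core ACGTG, the TEAD motif GGAATG, the GC box GGGCGG, the CCAAT box with those letters, and the E2F motif TTTCCCGC. Capitals mark matches, which do not overlap each other. The Loxl4 window is chr19:42612757-42613056 and the Plod1 window chr4:147936727-147937026, both on the minus strand.
Loxl4 promoter: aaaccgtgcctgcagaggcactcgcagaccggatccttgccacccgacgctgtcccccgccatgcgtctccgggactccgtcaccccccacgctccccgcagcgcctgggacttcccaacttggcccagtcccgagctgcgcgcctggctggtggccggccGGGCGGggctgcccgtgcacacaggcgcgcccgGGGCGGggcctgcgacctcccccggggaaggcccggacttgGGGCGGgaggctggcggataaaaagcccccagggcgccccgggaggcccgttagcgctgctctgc
Plod1 promoter: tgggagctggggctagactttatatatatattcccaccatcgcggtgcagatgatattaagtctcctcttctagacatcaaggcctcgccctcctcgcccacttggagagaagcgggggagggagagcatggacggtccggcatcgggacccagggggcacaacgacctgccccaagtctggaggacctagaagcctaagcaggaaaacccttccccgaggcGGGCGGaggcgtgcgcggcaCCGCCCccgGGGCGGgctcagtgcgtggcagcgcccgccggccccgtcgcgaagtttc
Each window held 3 GC boxes and none of the other letters. Of all 32851 promoter windows of that length, 35.7% held the GC box, 37.4% the CCAAT box, 19.6% the hypoxia core, 21% the SMAD element, 14.7% the TEAD motif, 7.81% the AP-1 motif, 1.07% the E2F motif and 0.213% the SMAD palindrome. Plod3 had no GC box, 1 hypoxia core and 1 CCAAT box. The Loxl4 window was 75.0% G and C with 32 CpG dinucleotides, Plod1 64.3% with 25 and Plod3 53.3% with 19, beside medians of 52.7% and 7 over all promoters. These matches describe the letters only.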

How the data were processed

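The authors deposited whole-number counts per gene, FPKM values of the same 8 libraries, the mean FPKM of each group, a log2 fold change, and p-values with an FDR, per the file headers. As checked, that fold change is the log2 of the quotient of their 2 mean FPKM values. Not given in the sources used here are the aligner, the counter, whether it used strand, the annotation, and the test behind the authors' p-values. The submitters' processing notes name GRCm38 and mm10. Of 3673 genes with over 1000 counts in every library, 1758 had a length implied by count and FPKM that varied by over 1% between libraries, so counts may be rounded estimates.

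Counts were fitted in edgeR 4.0.16 (R 4.3.3) after filterByExpr with TMM scaling. The quasi-likelihood F-test (two-sided, no block) set Ad-Cre against Ad-GFP, and p-values were adjusted after Benjamini and Hochberg over 13337 genes. SEs are the absolute log2 fold change over the square root of F, and intervals are at 95%, unadjusted. CPM uses TMM-scaled totals. The fit was also run on counts simulated from the fit itself, with far fewer changed genes than here, so that run is no check of the calls. Within a group, pairs of libraries differed by more than sampling noise (chi-square per degree of freedom 1.83 to 3.35). Positions come from GENCODE M21 on GRCm38, which held 22267 of the 22322 gene IDs, and promoters from RefSeq.

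The members, the gene lists and the tests were chosen with earlier results of these data known. Beside the 8 members, Suv39h1, Col1a1 and Col1a2, the text names the 4 called genes of smallest p in each list plus any called gene changed at least 1.5-fold with at least 5 CPM, the 2 highest markers of each cell type, and the 5 genes most correlated with the leading called member of each family. Genes named outside that rule, markers of the labelled cell type and overlapping genes included, were picked after their values were seen. Alternatives were RLE and upper-quartile factors, 2 filters, DESeq2 1.42.0, limma 3.58.1 (voom, and log2 of FPKM plus 1 or 0.1), the replicate block, thinning to 15879244 counts, and leaving out each library.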

Additional observations from a re-analysis of the deposited data

Results flagged for a closer look

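Lox in Ad-Cre replicate 2 was flagged because that library stood apart from the other 3 of its group: it was at 154.463 CPM and 32.61 FPKM, and the gap to the next library took 0.848 of the group's range in CPM and 0.854 in FPKM, more than Dixon's 95% limit for 4 samples. Chance flags about 1 in 20 such groups. Of 32 groups looked at (8 genes, 2 groups, CPM and FPKM), these 2 were flagged, and they are the same library measured in both units. The same library was the deepest, at 23940043 counts, and held the lowest Loxl3 value of the 8, at 2.10 CPM. The part of depth in the high Lox value was not tested.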

How the results depend on the processing

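The calls for Loxl4, Loxl2 and Plod2 kept direction and threshold in all 19 alternatives run, with a log2 fold change of -0.915 to -0.774 for Loxl4, -0.265 to -0.19 for Loxl2 and 0.085 to 0.118 for Plod2, and adjusted p-values of at most 8.691e-05, 0.00118 and 0.0286. Plod1 and Plod3 stayed uncalled in all 19. The count of changed members was 3 in every alternative except without Ad-Cre replicate 2, where Lox joined, and without Ad-Cre replicate 4, where Loxl3 joined, so leaving out 1 library gave 3 to 4. Members that did not overlap numbered 3 under RLE and upper-quartile factors too. Loxl3 was not tested under the filter of at least 5 CPM or the filter of a mean FPKM of at least 1.

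Loxl1, never called, changed sign: its log2 fold change was -0.005 with upper-quartile factors, -0.001 with the filter of at least 5 CPM, -0.009 with log2(FPKM + 1), with and without a filter, -0.01 with log2(FPKM + 0.1), and between -0.014 and 0.048 when 1 library was left out. The difference in share of Plod1 was 0.304 percentage points, and -0.047 with counts over the median implied length. Leaving out 1 library gave -0.154 to 0.685 for Plod1, -0.257 to 0.75 for Plod2 and -0.154 to 0.011 for Loxl3, so the signs of these 3 are not settled. The share of Loxl2 differed by -1.229 points, by -0.623 with counts over the median implied length, and by -1.728 to -0.545 with 1 library left out (-0.545 without Ad-Cre replicate 2, -0.734 without Ad-GFP replicate 1). That of Plod3 differed by -0.572, by -1.084 with the same counts, and by -0.793 to -0.36 with 1 library left out (-0.36 without Ad-Cre replicate 3, -0.372 without Ad-Cre replicate 2). The cause was not tested.

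Over all genes, 5370 changed, 2641 higher and 2729 lower. Leaving out 1 library gave 4816 to 5084, 2303 to 2446 higher and 2478 to 2638 lower. Upper-quartile factors gave 5253, with 2164 higher and 3089 lower, and DESeq2 gave 4364, with 2109 higher and 2255 lower. Limma gave 3530 (1400 higher) on log2(FPKM + 1) and 3520 (1393 higher) on log2(FPKM + 0.1), and 3649 (1266 higher) with no filter. With the replicate block 5390 genes and the same 3 members were called. Same-numbered libraries correlated at 0.083, 0.104, 0.008 and -0.012 in their deviations from the group means, and not every library correlated best with its own number, so the numbers were not taken as pairs. Depth limits Loxl3 most, with 50 to 79 reads in a library.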

Other observations

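Amine oxidases outside the family and hypoxia genes were also looked at, where 19.8% of all genes tested rose and 20.5% fell. Of 4 tested amine oxidase genes 1 rose and 1 fell: Aoc1, a diamine oxidase, rose from 3.08 ± 0.53 to 7.60 ± 0.30 CPM (SD, n = 4), and Maoa, the mitochondrial monoamine oxidase A, fell from 76.8 ± 1.8 to 42.7 ± 3.6 CPM, to 55.7% of Ad-GFP (adjusted p = 8.909e-14, edgeR). Of 13 tested hypoxia genes 4 fell, 0 rose and 9 did not pass, with a median log2 fold change of -0.031. The targets Adm and Bnip3 fell to 74.2% and 87.2%. Hif1a and Epas1, which encode hypoxia-inducible factor subunits and are not counted as targets here, fell to 88.3% and 82.3%.

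Over the 8 libraries, the genes whose log2 CPM ran most like that of Loxl4, among 10692 genes of at least 5 CPM, were Maoa (Pearson r = 0.997), Ppp1r18 (0.996), Pfkp (0.996), Cav1 (0.995) and Dusp4 (0.994), at 55.7%, 77.0%, 57.0%, 59.7% and 75.6% of Ad-GFP. Those most like Plod2 were Pfdn5 (r = 0.990), Nr1d2 (0.989), Frrs1 (0.988), Tpt1 (0.987) and Btg2 (0.985), all higher in Ad-Cre, at 111.1% to 123.8% of Ad-GFP. These correlations are a description over 8 libraries that fall into 2 groups, so each reflects the split between the groups above all, and the genes share the libraries and their depth.

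The length implied by a gene's count and FPKM was 3184 to 3222 bases for Plod3 in Ad-GFP and 3050 to 3163 bases in Ad-Cre, and the groups did not overlap. Among the 3673 genes that exceed 1000 counts throughout, 6.04% had groups apart in this way, and the 3 other members of that depth (Lox, Loxl2 and Plod2) had not. The implied length of Plod2 was 3656 to 3658 bases in all 8 libraries, between the annotated 3649 bases without and 3663 bases with its alternative exon. For Loxl1, which has 1 annotated transcript of 3297 bases, it was 3296 to 3298. The sources used here do not state how gene length was set, so these lengths are no measure of splicing.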
